A study of Mus musculus with 24 samples.

Results

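The genes described here are 10 transcription factors of the basic leucine zipper (bZIP) family that surround *Atf4* in the cellular stress response, namely *Atf3*, *Atf4*, *Atf5*, *Ddit3*, *Cebpb*, *Cebpg*, *Jdp2*, *Batf3*, *Bach1* and *Nfil3*. They were taken from a list of names, chosen with earlier results of these data known, and are 10 of the 56884 genes in the count table. All 10 passed the filter on low counts, as did 13679 genes in total. The libraries hold RNA of macrophages grown from the bone marrow of 4 wild-type C57BL/6J female mice of 9 weeks, numbered 1, 2, 4 and 5, and each mouse gave 1 library to each of 6 groups, so that 24 libraries were compared. All cells were grown with macrophage colony-stimulating factor (M-CSF). Naive cells received no further cytokine, whereas the other 5 groups received interleukin-4 (IL-4) and interleukin-13 (IL-13) for 24 hours, each at 20 ng/ml. Below, the cytokines means IL-4 and IL-13. IL-4/IL-13 cells received nothing else. In 3 groups of inhibitors the cells were also exposed, from 1 hour before the cytokines onward, to tunicamycin at 5 µg/ml, Sal003 at 10 µM, or oligomycin at 1 µM, and a group with oligomycin received ISRIB at 1 µM in addition. Tunicamycin blocks N-glycosylation in the endoplasmic reticulum (ER), Sal003 inhibits the dephosphorylation of eIF2α, oligomycin inhibits the mitochondrial ATP synthase, and ISRIB makes the translation machinery less sensitive to phosphorylated eIF2α.

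The labels disagree on which oligomycin libraries contained ISRIB. By library name it was added to the 4 libraries called Oli_ISR, but by title it was added to the 4 libraries called Oligo. Both sets are therefore given by library name, and every statement on them holds for a library of that name, not for the presence or absence of ISRIB. No measured value was used to choose between these readings.

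bZIP factors bind DNA as dimers, and the choice of partner sets which sites they occupy. When eIF2α is phosphorylated, most translation falls while the mRNA of *Atf4* is translated better, and ATF4 then activates genes of amino acid synthesis and transport, among them further bZIP genes. This programme is called the integrated stress response (ISR). Other bZIP factors in macrophages answer to cytokines, to heme or to inflammatory signals, so the family carries both stress-linked and cytokine-linked members.

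Counts on genes summed to 16238727 to 26725278 per library (median 18999998). Levels are given as CPM, counts rescaled to the same library size after trimmed mean of M values (TMM) normalisation. A member with few counts is measured less precisely, and *Batf3* in tunicamycin had the fewest, 96 to 130 per library. All 6 macrophage markers were detected in every group, but their levels moved between groups. Their sum was 9400 to 11200 CPM in naive cells, 5730 to 6910 in IL-4/IL-13, 7340 to 7780 with Sal003, 7430 to 7730 in Oli_ISR, 4950 to 5220 in Oligo and 7610 to 8940 in tunicamycin. In tunicamycin against IL-4/IL-13 cells, *Adgre1* (log2 2.77) and *Fcgr1* (2.64) were higher while *Csf1r* (-2.18), *Mertk* (-1.8) and *Cd68* (-1.35) were lower. Markers of other cells were scarcer and moved as well. The summed level of 7 neutrophil markers was 32.1 to 62.7 CPM in naive cells, 18.4 to 33.9 in IL-4/IL-13, 14.6 to 18.5 in Oli_ISR, 4.2 to 6.84 in Sal003, 1.97 to 3.72 in Oligo and 0.0513 to 0.285 in tunicamycin. For 4 fibroblast markers the sum was 17.2 to 130 CPM in naive cells, 14.3 to 82.2 in IL-4/IL-13, 5.39 to 53.2 over the libraries of Sal003, Oli_ISR and Oligo, and 3.41 to 23.6 in tunicamycin, where all 4 were called lower than in naive cells and 2 lower than in IL-4/IL-13 cells. T cell and B cell markers summed to at most 0.0568 and 1.22 CPM. The part of these cells in the results was not tested. In bulk RNA, fewer cells of a type and less RNA per cell cannot be told apart.

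Across the groups the 10 genes fell into several patterns, which the plot of all libraries shows. *Atf4*, *Atf5*, *Ddit3* and *Jdp2* were highest in tunicamycin, *Cebpb* and *Cebpg* in Oligo, *Batf3*, *Nfil3* and *Atf3* in IL-4/IL-13 cells (with *Atf3* at 866 CPM there and 857 in Oli_ISR), and *Bach1* in naive cells. A gene was called at an adjusted p-value under 0.05, and separately at that p-value with at least a 2.5-fold change.

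**Figure D1:**
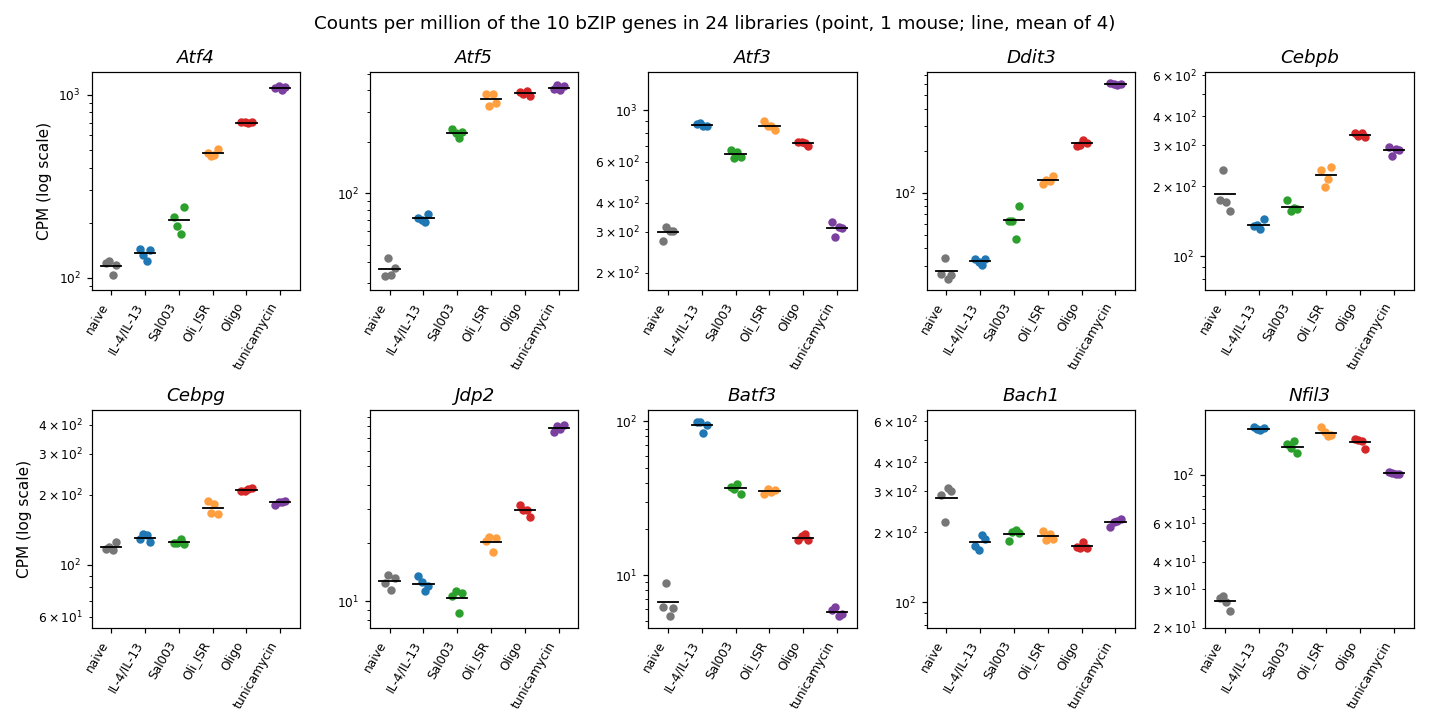
CPM (log scale) of each of the 10 genes in the 6 groups, where a point is the library of 1 mouse and a line the mean of 4. *Ddit3* rises from 27.7 CPM in naive cells to 600.2 in tunicamycin (means), while *Batf3* sits at 94.3 in IL-4/IL-13 cells and at 5.79 in tunicamycin.

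IL-4/IL-13 alone, set against naive cells, asks which of these factors the cytokines move without added stress. There were 6 members higher and 2 lower, where 30.1% of all tested genes were called higher and 30.4% lower. At 2.5-fold, *Batf3*, *Nfil3* and *Atf3* were higher and none was lower (background 5.39% higher, 6.08% lower). *Atf5* was 1.97-fold higher, *Atf4* 1.17-fold and *Cebpg* 1.1-fold, whereas *Bach1* fell 1.55-fold and *Cebpb* 1.34-fold. The median log2 change of the 10 members was 0.23, against -0.02 for all tested genes.

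Tunicamycin moved every member when set against IL-4/IL-13 cells, with 7 higher and 3 lower (background 76.3% in either direction, 38.7% higher, 37.6% lower). *Ddit3*, *Atf4*, *Jdp2* and *Atf5* were higher by at least 2.5-fold, as were 8.56% of tested genes. *Batf3* and *Atf3* were lower by that much, as were 14%. The median of the members was 0.78 on the log2 scale, against 0.01 for all genes.

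Sal003 gave smaller changes. Against IL-4/IL-13 cells, 4 members were higher (*Atf5*, *Ddit3*, *Atf4*, *Cebpb*) and 4 lower (*Batf3*, *Atf3*, *Nfil3*, *Jdp2*) of the 10, where the background was 25.9% higher and 24.6% lower. *Atf5* was the member higher by 2.5-fold (background 2.68%), and *Batf3*, at 2.57-fold, lay just past that limit on the lower side (background 5.04%). The members' median was 0.03 against 0 for all genes.

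In the oligomycin sets, 6 members were higher in both Oligo and Oli_ISR (*Ddit3*, *Atf5*, *Atf4*, *Cebpb*, *Jdp2*, *Cebpg*), where the background was 34% and 27.9%. Lower were 3 members in Oligo (*Batf3*, *Atf3*, *Nfil3*; background 32.2%) and 1 in Oli_ISR (*Batf3*; background 26.4%). *Ddit3*, *Atf5* and *Atf4* passed 2.5-fold in both sets (background 4.79% in Oligo, 2.94% in Oli_ISR), and so did the fall of *Batf3* (background 7.96% and 5.02%). *Cebpb* and *Jdp2* in Oligo missed it narrowly, at 2.42-fold and 2.4-fold. The comparisons of the 4 inhibitor groups share the same IL-4/IL-13 libraries.

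**Figure D2:**
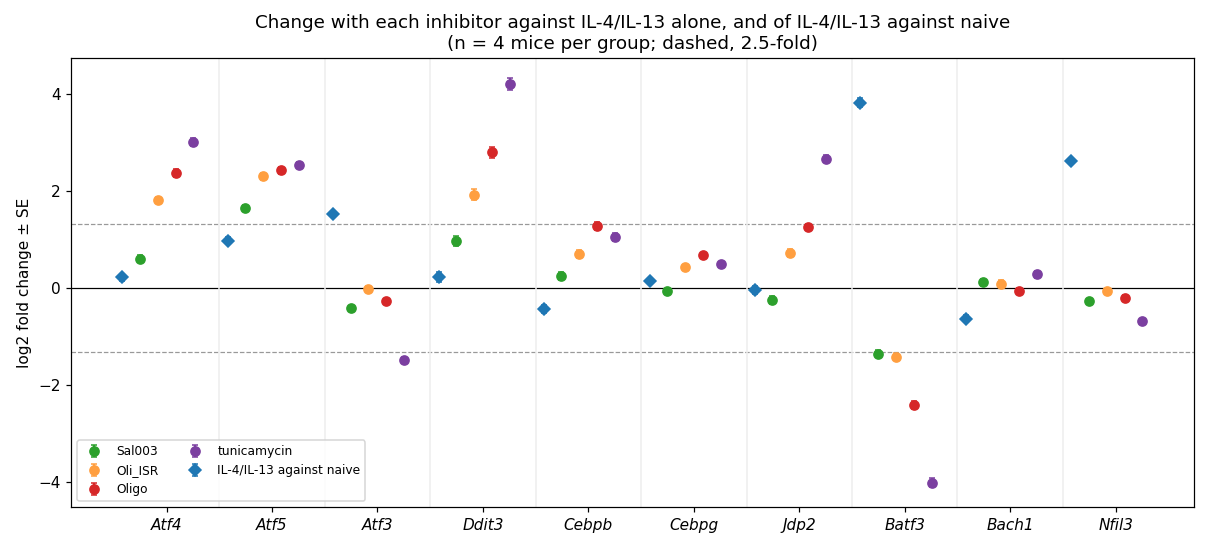
Log2 fold change ± SE of each gene in the 4 inhibitor groups against IL-4/IL-13 cells (circles) and in IL-4/IL-13 against naive cells (diamonds), n = 4 per group, with dashed lines at 2.5-fold. *Ddit3* in tunicamycin stands highest, at 4.21, and *Batf3* in tunicamycin lowest, at -4.02.

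*Atf4*, which encodes the factor translated when eIF2α is phosphorylated, is a gene with 1 merged exon on chromosome 15 (ENSMUSG00000042406, chr15:80139372-80141745, plus strand, build GRCm39), and it shares no exon sequence with another gene. In mice 1, 2, 4 and 5 its level was 121, 123, 103 and 117 CPM in naive cells and 143, 134, 124 and 142 in IL-4/IL-13 cells. With Sal003 it was 214, 193, 173 and 245, and in Oli_ISR 480, 461, 466 and 505. In Oligo the 4 libraries held 706, 706, 699 and 706 CPM, and in tunicamycin 1094, 1111, 1066 and 1104. No group overlapped its neighbour in this order, and the 4 Oligo libraries lay within a coefficient of variation of 0.47%. Against IL-4/IL-13 cells, the log2 fold change was 3.01 in tunicamycin (SE 0.08, adjusted p = 3.2e-21), 2.38 in Oligo (SE 0.08, adjusted p = 1.1e-18), 1.82 in Oli_ISR (SE 0.07, adjusted p = 5.4e-16) and 0.61 in Sal003 (SE 0.07, adjusted p = 1.8e-07). Every step between neighbouring groups passed the test, also the smallest, from naive to IL-4/IL-13 cells (log2 0.22, SE 0.07, adjusted p = 0.012), but without mouse 1 that step had an adjusted p of 0.057.

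*Atf5* encodes a factor whose mRNA, like that of *Atf4*, is translated better under eIF2α phosphorylation (ENSMUSG00000038539, chr7:44461680-44466082, minus strand). It was 32.8, 41.8, 33.6 and 36.9 CPM in naive cells and 72.2, 69.9, 68.4 and 75.6 in IL-4/IL-13 cells. With Sal003 it reached 238, 224, 211 and 229 CPM. Libraries of Oli_ISR (381, 322, 382, 336), Oligo (393, 383, 398, 371) and tunicamycin (407, 427, 404, 421) lay close together. The means of tunicamycin and Oligo did not differ past the threshold (log2 0.1, SE 0.06, adjusted p = 0.15), nor did those of Oligo and Oli_ISR (log2 0.12, SE 0.06, adjusted p = 0.12, or 0.046 with upper-quartile scaling), whereas tunicamycin exceeded Oli_ISR (log2 0.22, SE 0.06, adjusted p = 0.0022, higher in 4 of 4 mice). Against IL-4/IL-13 cells, the increase was 3.15-fold with Sal003 (log2 1.66, SE 0.06, adjusted p = 4e-16), 4.96-fold in Oli_ISR, 5.4-fold in Oligo and 5.8-fold in tunicamycin. Of the exon sequence of *Atf5*, 8.4% lies opposite first exons of *Nup62* and *Il4i1*. *Il4i1*, an IL-4-induced amino acid oxidase, changed by 6.54 on the log2 scale from naive to IL-4/IL-13 cells, where *Atf5* also rose, but fell in all inhibitor groups (log2 -2.86 to -8.15), where *Atf5* rose further. *Nup62* rose with the cytokines (log2 0.75, SE 0.05) and, against IL-4/IL-13 cells, in Oligo (0.7), Oli_ISR (0.43) and tunicamycin (0.34). With Sal003 it was not called (log2 0.05, adjusted p = 0.39). The sequence that *Atf5* shares with these genes was not resolved by strand. Its part in the changes of *Atf5*, with the cytokines or the inhibitors, was not tested.

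*Ddit3* encodes CHOP, a stress-induced factor that pairs with ATF4 and with C/EBP proteins (ENSMUSG00000025408, chr10:127124268-127132163, plus strand). Its level in mice 1, 2, 4 and 5 was 26.3, 34.4, 24.2 and 26 CPM in naive cells and 33.8, 31.9, 30.2 and 33.7 in IL-4/IL-13 cells. With Sal003 it was 62.4, 63.2, 47 and 80.9, the widest spread of its groups. In Oli_ISR it was 116, 124, 121 and 132 CPM, in Oligo 216, 220.5, 240.3 and 227, and in tunicamycin 612, 598, 590.5 and 600.3. Naive and IL-4/IL-13 libraries overlapped, while from there each group lay wholly above the one before. Against IL-4/IL-13 cells it was 18.5-fold higher in tunicamycin (log2 4.21, SE 0.12, adjusted p = 9.4e-21), 6.98-fold in Oligo (log2 2.8, SE 0.11, adjusted p = 5.3e-17), 3.8-fold in Oli_ISR and 1.96-fold with Sal003 (log2 0.97, SE 0.11, adjusted p = 5.1e-08). The difference between IL-4/IL-13 and naive cells (log2 0.23, SE 0.11) had an adjusted p of 0.088, which DESeq2 (0.048), no filter on low counts (0.015) and leaving out mouse 2 (0.032) moved past the threshold.

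The annotation of *Ddit3* is crowded, as the map of its locus shows. Its merged exons cover 5579 bp, of which 82.4% lies opposite exons of other genes, 64.1% opposite *Mars1* (methionyl-tRNA synthetase), 17% opposite the long noncoding RNA *Gm4189* and 1.2% opposite *Mbd6*, and 983 bp are free of any other gene. How the counting treated strand is not stated in the sources used here. Without strand, reads from the shared stretches cannot be given to *Ddit3* or to *Mars1*. Against IL-4/IL-13 cells, *Mars1* itself was 1.3 higher on the log2 scale in tunicamycin (SE 0.05), 1.46 in Oligo (SE 0.05), 1.31 in Oli_ISR and 0.34 with Sal003. Each of these was smaller than the change of *Ddit3*. From naive to IL-4/IL-13 cells *Mars1* rose by 0.35 (SE 0.05, adjusted p = 8.3e-07), more than *Ddit3* (0.23, SE 0.11, adjusted p = 0.088). The part of *Mars1* in the counts of *Ddit3* was not tested. *Gm4189* had 5 to 10.5 mean counts per group. A second identifier with the symbol *Ddit3*, ENSMUSG00000116429, shares 1.9% of the exon sequence and held 0 counts in all 24 libraries, against 84190 counts in total for the first.

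**Figure D3:**
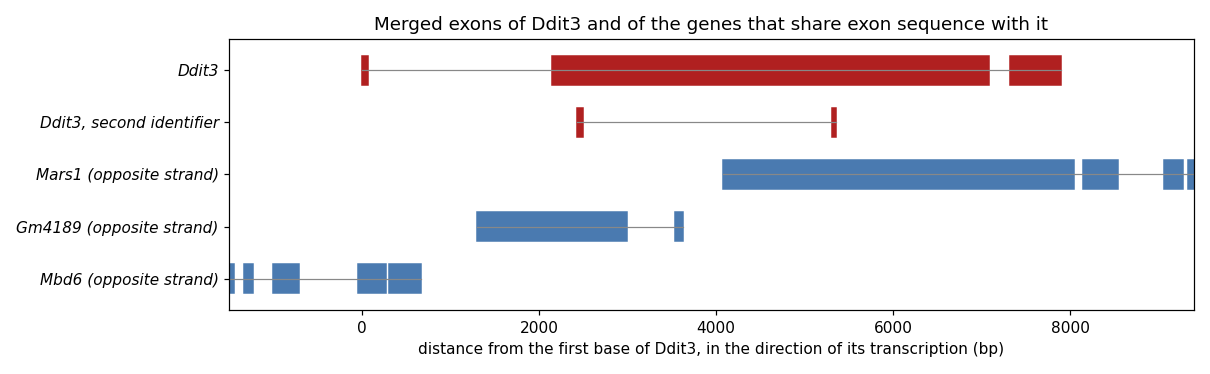
Merged exons (boxes) of *Ddit3*, of its second identifier and of the genes on the opposite strand, by distance in bp from the first base of *Ddit3* (GRCm39 with the GENCODE M39 annotation). *Mars1* covers 64.1% of the exon sequence of *Ddit3*.

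Promoters were searched because the members moved apart although several are known targets of ATF4. In the 300 bases before the start of the canonical transcript, the composite site that joins a C/EBP and an ATF element (TGATGNAAN, either strand) was present in 2 members, *Atf3* and *Ddit3*, and in 4.1% of 21654 promoters of protein-coding genes. These are shown because they share this match while the genes changed in opposite directions with tunicamycin. The first is chr1:190915538-190915837 (minus strand) and the second chr10:127126260-127126409 (plus strand), both from GRCm39. Capitals mark the composite site and, in *Ddit3*, a C/EBP site (TTGCNNAA) before it.
Atf3: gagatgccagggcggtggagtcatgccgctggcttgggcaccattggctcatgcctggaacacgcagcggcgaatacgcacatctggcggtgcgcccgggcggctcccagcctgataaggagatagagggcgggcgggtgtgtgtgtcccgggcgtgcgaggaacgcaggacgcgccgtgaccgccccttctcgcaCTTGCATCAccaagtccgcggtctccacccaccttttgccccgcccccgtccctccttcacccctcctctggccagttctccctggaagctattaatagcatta
Ddit3: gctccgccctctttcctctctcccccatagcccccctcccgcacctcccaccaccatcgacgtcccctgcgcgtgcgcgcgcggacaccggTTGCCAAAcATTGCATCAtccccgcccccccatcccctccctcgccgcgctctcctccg
The composite match of *Atf3* lies at -104 to -96 from the start and that of *Ddit3* at -200 to -192, both on the strand opposite to the gene, and the C/EBP match of *Ddit3* lies at -209 to -202 on the same strand as the gene (this motif was in 11.4% of promoters). The window of *Ddit3* also held the AP-1 motif TGANTCA, a near-palindrome found on both strands, at -140 to -134, which falls in an exon of another of its transcripts and is not printed (7.4% of promoters). No member matched the cAMP response element TGACGTCA (1.7%), the ER stress response element (0.1%), the unfolded protein response element TGACGTGG (0.6%) or the STAT6 motif, in which 2 short arms stand 4 bases apart (7.4%). A match is a stretch of letters, not a shown binding site.

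*Cebpb* encodes an activating C/EBP protein that macrophages use in many inflammatory programmes (ENSMUSG00000056501, chr2:167530835-167532338, plus strand, 1 merged exon). Its naive libraries held 175, 234, 172 and 157 CPM, and mouse 2 stood above the others. The IL-4/IL-13 libraries held 135, 137, 131 and 145 CPM, all below the naive ones (log2 -0.43, SE 0.08, adjusted p = 7.4e-05). In Oligo they held 338, 328, 339.6 and 325, in tunicamycin 296, 271, 289 and 285, and these groups did not overlap. Oligo was 2.42-fold above IL-4/IL-13 (log2 1.28, SE 0.08, adjusted p = 8.1e-13), tunicamycin 2.08-fold (log2 1.06, SE 0.08, adjusted p = 1.5e-11) and Oli_ISR 1.62-fold. Oligo exceeded tunicamycin as well, with tunicamycin lower by 0.22 on the log2 scale (log2 -0.22, SE 0.08, adjusted p = 0.019). The rise with Sal003 was small (log2 0.25, SE 0.08, adjusted p = 0.014) and was lost without mouse 1 (adjusted p = 0.15) or mouse 4 (0.078). *Peds1*, opposite to 20.7% of the exon of *Cebpb*, fell by 0.23 on the log2 scale in tunicamycin and rose by 0.26 in Oligo.

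*Cebpg* encodes a C/EBP protein that lacks an activation domain and pairs with ATF4 (ENSMUSG00000056216, chr7:34745847-34756011, minus strand). It moved over the narrowest range of the ISR-linked members. Its libraries held 116 to 126 CPM in naive cells, 125 to 136 in IL-4/IL-13, 123 to 129 with Sal003, 166 to 189 in Oli_ISR, 208 to 213 in Oligo and 181 to 188 in tunicamycin. Oligo stood above every other group, 1.61-fold over IL-4/IL-13 (log2 0.68, SE 0.04, adjusted p = 3.5e-13), and exceeded tunicamycin (adjusted p = 0.00051). Tunicamycin and Oli_ISR did not differ past the threshold (log2 0.08, SE 0.04, adjusted p = 0.11), and neither did Sal003 and IL-4/IL-13 cells (log2 -0.07, SE 0.04, adjusted p = 0.19) except with upper-quartile scaling (0.04). The rise of *Cebpg* from naive to IL-4/IL-13 cells (log2 0.14, SE 0.04, adjusted p = 0.0081) was lost without mouse 4 (0.086) and in a fit of those 2 groups alone (0.057).

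*Atf3* is an early stress gene whose product mostly represses transcription (ENSMUSG00000026628, chr1:190902493-190950241, minus strand), and it is widely used as a target of ATF4. Its level in mice 1, 2, 4 and 5 was 275, 316, 304 and 303 CPM in naive cells and 869, 884, 854 and 856 in IL-4/IL-13 cells. In tunicamycin it was 332, 285, 315 and 312. The tunicamycin libraries, which also received the cytokines, overlapped the naive ones, and both groups lay far below the other cytokine-treated groups. With IL-4/IL-13 *Atf3* was 2.89-fold above naive cells (log2 1.53, SE 0.05, adjusted p = 6e-19), with tunicamycin 2.78-fold below IL-4/IL-13 (log2 -1.48, SE 0.05, adjusted p = 2.5e-19), and tunicamycin and naive cells did not differ past the threshold (log2 0.05, SE 0.05, adjusted p = 0.31). Sal003 (673, 625, 659 and 628 CPM; log2 -0.42, SE 0.05, adjusted p = 3.7e-08) and Oligo (731, 728, 719.5 and 701 CPM; log2 -0.27, SE 0.05, adjusted p = 2e-05) lay lower than IL-4/IL-13 cells, whereas the difference of Oli_ISR from them did not pass the test (log2 -0.01, SE 0.05, adjusted p = 0.82). On a log2 CPM scale and per mouse, the part of the cytokine rise of *Atf3* that was kept was 3% ± 10.8 in tunicamycin, 72.3% ± 5.1 with Sal003, 82.6% ± 2 in Oligo and 98.9% ± 3.2 in Oli_ISR (SD, n = 4).

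*Jdp2* encodes a repressor closely related to ATF3 that binds AP-1 and cAMP response elements (ENSMUSG00000034271, chr12:85645015-85690570, plus strand). It was low in most groups, at 12.5, 13.6, 11.4 and 13.2 CPM in naive cells, 13.5, 12.6, 11.3 and 12 in IL-4/IL-13 cells, and 10.7, 11.3, 8.72 and 11 with Sal003. In Oli_ISR it was 20.6, 21.5, 18 and 21.3, and in Oligo 31.6, 29.5, 29.7 and 27.4. In tunicamycin it reached 74.8, 80.4, 77.7 and 81 CPM. IL-4/IL-13 libraries overlapped those of naive cells and of Sal003, and the other groups rose step by step without overlap. Against IL-4/IL-13 cells the increase was 6.37-fold in tunicamycin (log2 2.67, SE 0.07, adjusted p = 8.4e-21), 2.4-fold in Oligo (log2 1.26, SE 0.07, adjusted p = 1.4e-13) and 1.65-fold in Oli_ISR (log2 0.73, SE 0.08, adjusted p = 1.3e-08), while Sal003 was lower (log2 -0.24, SE 0.08, adjusted p = 0.019, or 0.095 without mouse 1). Its change with tunicamycin was thus opposite in sign to that of *Atf3*. IL-4/IL-13 and naive cells did not differ past the threshold (log2 -0.04, SE 0.08, adjusted p = 0.67). The opposite-strand RNA *Gm47863*, which shares 6.4% of the exon sequence of *Jdp2*, had 52.8 mean counts in tunicamycin and 11 in IL-4/IL-13 cells. Against IL-4/IL-13 cells it rose in tunicamycin (log2 2.15, SE 0.24), Oligo (1.68, SE 0.24) and Oli_ISR (1, SE 0.26). With Sal003 it was not called (0.52, adjusted p = 0.12), and from naive to IL-4/IL-13 cells it fell (-0.78, adjusted p = 0.014). Its part in the changes of *Jdp2* was not tested.

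*Batf3* encodes a partner of JUN proteins that is required for a lineage of dendritic cells (ENSMUSG00000026630, chr1:190830044-190841142, plus strand, no shared exon sequence). Naive libraries held 6.2, 8.87, 5.42 and 6.11 CPM and IL-4/IL-13 libraries 98.8, 98.7, 84.7 and 94.9. With Sal003 the level was 37.6, 36.5, 39.2 and 33.7, and in Oli_ISR 33.8, 36.5, 34.5 and 35.9. Oligo libraries held 16.9, 17.9, 18.5 and 16.9 CPM and tunicamycin libraries 5.96, 6.19, 5.45 and 5.55. Sal003 and Oli_ISR overlapped, and so did tunicamycin and naive cells, with all other groups apart. The cytokines raised *Batf3* 14.2-fold (log2 3.83, SE 0.09, adjusted p = 2.7e-21), the largest rise of a member in that comparison. Against IL-4/IL-13 cells it was then 16.3-fold lower in tunicamycin (log2 -4.02, SE 0.09, adjusted p = 2.4e-22), 5.37-fold in Oligo (log2 -2.42, SE 0.08, adjusted p = 1.3e-18), 2.68-fold in Oli_ISR (log2 -1.42, SE 0.07) and 2.57-fold with Sal003 (log2 -1.36, SE 0.07). Tunicamycin and naive cells did not differ past the threshold (log2 -0.19, SE 0.11, adjusted p = 0.12), nor did Sal003 and Oli_ISR (adjusted p = 0.64). Of its cytokine rise on the log2 scale, -4.9% ± 6.8 was kept in tunicamycin, 36.6% ± 6.3 in Oligo, 62.8% ± 3.8 in Oli_ISR and 64.4% ± 5.6 with Sal003 (SD, n = 4).

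Markers of dendritic cells moved in part with *Batf3*. The summed level of 5 such markers was 5.14 to 8.54 CPM in naive cells, 7.26 to 9.1 in IL-4/IL-13 cells, 2.13 to 2.59 with Sal003, 1.79 to 2.9 in Oli_ISR, 1.41 to 2.55 in Oligo and 1.02 to 2.19 in tunicamycin. The marker sums of naive and IL-4/IL-13 libraries overlapped, while *Batf3* was 14.2-fold apart between these groups. *Xcr1*, which marks the lineage that needs BATF3, was at 0 counts in naive, IL-4/IL-13 and Sal003 libraries, 0 to 1 in Oligo and Oli_ISR and 2 to 4 in tunicamycin. *Clec9a* had 23 to 40 counts in naive libraries, where *Batf3* was low, 18 to 30 in IL-4/IL-13 libraries and 1 to 4 in tunicamycin. The part of such cells in the fall of *Batf3* was not tested.

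*Nfil3* encodes a repressor that cytokines induce in several kinds of blood cell (ENSMUSG00000056749, chr13:53121245-53137010, minus strand). It was 27.4, 27.9, 26.3 and 23.9 CPM in naive cells and 164, 162, 159 and 163 in IL-4/IL-13 cells. Tunicamycin libraries held 103, 102, 100.3 and 100.3 CPM, lower than every IL-4/IL-13 library and higher than every naive one. The cytokine rise was 6.15-fold (log2 2.62, SE 0.05, adjusted p = 1.6e-22), and tunicamycin lay 1.6-fold below IL-4/IL-13 (log2 -0.68, SE 0.05, adjusted p = 1.7e-12) yet 3.84-fold above naive cells (log2 1.94, SE 0.05, adjusted p = 6.4e-21). On the log2 scale it kept 74% ± 0.7 of its rise in tunicamycin, 89.6% ± 3.2 with Sal003, 92.3% ± 2.4 in Oligo and 97.6% ± 1.7 in Oli_ISR (SD, n = 4), so that in tunicamycin the kept part of *Nfil3* lay above the ranges of *Atf3* (-10.2% to 16.2%) and *Batf3* (-14.8% to 0.2%) in every mouse.

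*Bach1* encodes a heme-sensing repressor of antioxidant genes (ENSMUSG00000025612, chr16:87495782-87530234, plus strand). Its naive libraries held 290.1, 221, 309 and 302 CPM, with mouse 2 low. IL-4/IL-13 libraries held 175, 168, 195 and 187, below all naive ones (log2 -0.63, SE 0.07, adjusted p = 3.4e-08). Among the cytokine-treated groups it varied little, and tunicamycin (211 to 228 CPM) was the inhibitor group that passed the test (log2 0.28, SE 0.07, adjusted p = 0.00094). Oligo (log2 -0.06, SE 0.07), Oli_ISR (log2 0.09, SE 0.07) and Sal003 (log2 0.12, SE 0.07) did not. Of 10 known BACH1 targets tested, 5 were higher and 5 lower in tunicamycin (median log2 0.02), 5 higher and 4 lower in Oligo (0.11), 3 higher and 6 lower in Oli_ISR (-0.35), and 2 higher and 7 lower with Sal003 (-0.36), with an all-gene median of 0 to 0.01. Of all tested genes, the shares called higher and lower were 38.7% and 37.6% in tunicamycin, 34% and 32.2% in Oligo, 27.9% and 26.4% in Oli_ISR, and 25.9% and 24.6% with Sal003. The ferritin gene *Fth1* had the largest change of these in all 4 inhibitor groups (log2 1.1 to 1.41).

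Oligo set directly against Oli_ISR had 5 members higher (*Ddit3*, *Cebpb*, *Atf4*, *Jdp2*, *Cebpg*) and 3 lower (*Batf3*, *Atf3*, *Nfil3*), with a background of 19.9% higher and 21.3% lower. None passed 2.5-fold (background 1.14% and 1.48%). *Ddit3* was 1.84-fold higher in Oligo (log2 0.88, SE 0.1, adjusted p = 1.2e-07), *Cebpb* 1.5-fold, *Atf4* 1.47-fold (log2 0.56, SE 0.07, adjusted p = 7.2e-07), *Jdp2* 1.45-fold and *Cebpg* 1.2-fold, each in 4 of 4 mice. *Batf3* was 2-fold lower (log2 -1, SE 0.08, adjusted p = 2.8e-10) and *Atf3* 1.19-fold lower, also in 4 of 4 mice. *Nfil3* was called lower (log2 -0.14, SE 0.05, adjusted p = 0.019), but not with upper-quartile scaling (0.09), without a filter on low counts (0.1) or without mouse 1 (0.12) or mouse 5 (0.075). *Bach1* was not called (log2 -0.14, SE 0.07, adjusted p = 0.11) except in a fit of the 2 groups alone (0.014) or without mouse 2 (0.028). Which sign belongs to the addition of ISRIB cannot be told apart from the labels.

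**Figure D4:**
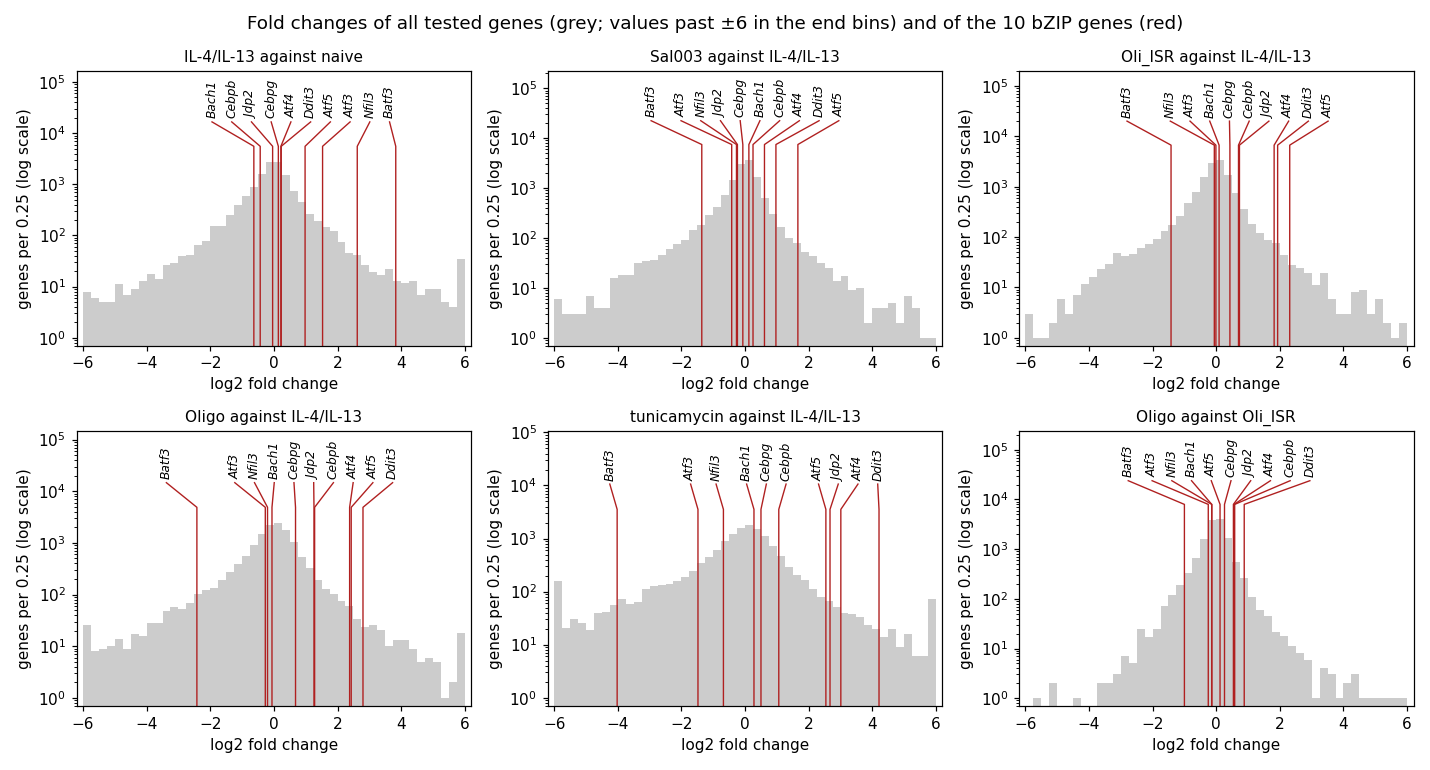
Number of tested genes per 0.25 of log2 fold change (log scale, grey) in 6 comparisons, with the 10 members as red lines. In tunicamycin, *Ddit3* lies at 4.21 and *Batf3* at -4.02 while 5% of all genes lie above 1.87 and 5% below -3.03.

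The members also changed relative to each other, as count ratios within a library show, which no scaling of the libraries can alter. These pairs were chosen after the levels were seen and are given without a test. Per count of *Atf4*, *Ddit3* had 0.238 ± 0.0285 counts in naive cells, 0.239 ± 0.00325 in IL-4/IL-13, 0.258 ± 0.012 in Oli_ISR, 0.305 ± 0.0286 with Sal003, 0.321 ± 0.0164 in Oligo and 0.549 ± 0.00917 in tunicamycin (SD, n = 4). The tunicamycin libraries (0.539 to 0.559) lay above all others, where no ratio exceeded 0.344. *Atf5* against *Atf4* followed another order, with 1.11 ± 0.123 with Sal003, 0.745 ± 0.0747 in Oli_ISR, 0.549 ± 0.0187 in Oligo, 0.528 ± 0.0197 in IL-4/IL-13, 0.379 ± 0.00539 in tunicamycin and 0.313 ± 0.0298 in naive cells. Sal003 thus had the highest share of *Atf5* to *Atf4* in every mouse although both genes were higher in Oligo and in tunicamycin. *Jdp2* against *Atf3* was 0.253 ± 0.0237 in tunicamycin, 0.0424 ± 0.00341 in naive cells and 0.0142 ± 0.000967 in IL-4/IL-13 cells. *Cebpb* against *Cebpg* was lowest in IL-4/IL-13 cells, at 1.05 ± 0.0803. It was 1.27 ± 0.128 in Oli_ISR and 1.31 ± 0.0679 with Sal003. Naive cells (1.55 ± 0.301), tunicamycin (1.54 ± 0.076) and Oligo (1.58 ± 0.0424) had similar, higher ratios.

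**Figure D5:**
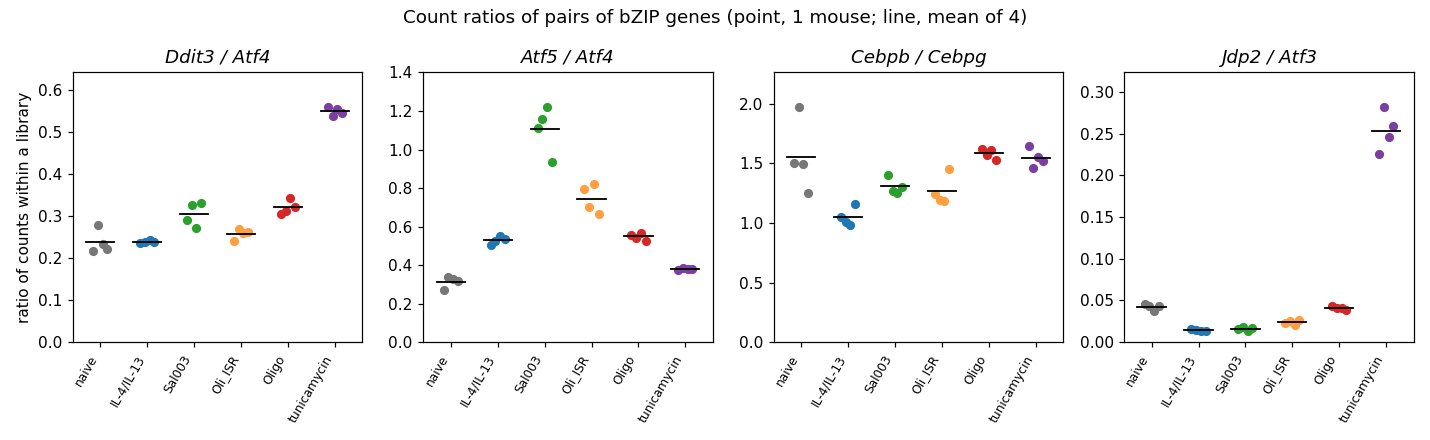
Ratio of counts within a library for 4 pairs of genes in the 6 groups, where a point is 1 mouse and a line the mean of 4, on axes that start at 0. The *Ddit3* to *Atf4* ratio is highest in tunicamycin (0.549) and the *Atf5* to *Atf4* ratio with Sal003 (1.11).

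Levels of different genes can be set side by side only per length, given here as CPM per kb of merged exon. Merged exons join those of all annotated transcripts of a gene and can be longer than any 1 of its mRNAs. The order of genes below therefore holds for this length only. On that scale *Atf3* and *Cebpb* led in naive cells (123 ± 7.1 and 123 ± 22.6), *Atf3* in IL-4/IL-13 cells (355 ± 5.72), and *Atf4* in tunicamycin (461 ± 8.21), followed there by *Atf5* (193 ± 5.1) and *Cebpb* (190 ± 7). In Oligo, *Atf4* (297 ± 1.39) and *Atf3* (295 ± 5.52) did not differ beyond their spread. *Jdp2*, whose merged exons are the longest (14779 bp, against 1597 bp for *Batf3*), was the lowest member on this scale. It had 0.706 to 2 CPM per kb in all groups but tunicamycin, where it had 5.31 and *Batf3* 3.62. By CPM, *Batf3* lay below *Jdp2* also in naive cells (6.65 and 12.7) and in Oligo (17.6 and 29.6), but above it in IL-4/IL-13, Sal003 and Oli_ISR. The values of *Ddit3* (108 ± 1.56 in tunicamycin) use the whole merged length of 5579 bp, most of which it shares with other genes. At 600.2 CPM in tunicamycin, its place among the members depends on that length.

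Known targets of ATF4 were mostly higher in the inhibitor groups. Of 24 tested targets, 22 were higher and 1 lower in tunicamycin against IL-4/IL-13 cells (median log2 2.9), 23 higher and none lower in Oligo (2.76), 22 higher and none lower in Oli_ISR (1.93), and 16 higher and 2 lower with Sal003 (0.77), with an all-gene median of 0 to 0.01 and 38.7%, 34%, 27.9% and 25.9% of all tested genes called higher in the same order. *Trib3*, a pseudokinase that binds ATF4, had the largest change in tunicamycin (log2 7.87, SE 0.11) and Oligo (7.24, SE 0.11), and *Chac1*, which degrades glutathione, in Oli_ISR (5.72, SE 0.16). From naive to IL-4/IL-13 cells, 11 targets were higher and 8 lower (median 0.15), where 30.1% and 30.4% of all tested genes were called. Of 8 targets of CHOP, 6 were higher in tunicamycin and 2 lower (median 3.46), 6 higher and 1 lower in Oligo (1.38), 5 higher and 1 lower in Oli_ISR (0.7), and 3 higher and 1 lower with Sal003 (0.1). Of all tested genes, 38.7%, 34%, 27.9% and 25.9% were called higher and 37.6%, 32.2%, 26.4% and 24.6% lower, in the same order. *Ero1a*, an ER oxidase, changed by 3.88 on the log2 scale in tunicamycin (SE 0.1). Both lists hold *Trib3*. Of 6 genes for eIF2α kinases and phosphatase subunits, 2 were higher and 4 lower in tunicamycin (median log2 -0.23). In Oligo they were 3 and 3 (0.23), in Oli_ISR 3 and 2 (0.34), and with Sal003 2 and 1 (0.05). The share of all tested genes called lower was 37.6%, 32.2%, 26.4% and 24.6% in the same order. *Ppp1r15a*, which encodes the inducible phosphatase subunit GADD34, had the largest change of these 6 in tunicamycin (log2 3.24, SE 0.09) and in Oligo (log2 2.69, SE 0.09). It is also among the 8 targets of CHOP.

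Of 40 other bZIP genes that were tested, both directions held similar numbers. With tunicamycin 17 were higher and 19 lower than in IL-4/IL-13 cells (median log2 -0.41), with Oligo 12 and 12 (-0.03), with Oli_ISR 11 and 13 (-0.06), and with Sal003 12 and 15 (-0.1). Over all tested genes the shares higher and lower were 38.7% and 37.6%, 34% and 32.2%, 27.9% and 26.4%, and 25.9% and 24.6%, and the median 0 to 0.01. *Batf* (log2 3.5, SE 0.11) and *Cebpd* (log2 3.44, SE 0.07) rose most in tunicamycin, and *Fos* fell most (log2 -3.65, SE 0.14). *Batf*, a close relative of *Batf3*, thus rose from 6.13 to 69.2 CPM where *Batf3* fell. In Oligo, *Nfe2l1*, a regulator of proteasome genes, rose by 1.77 on the log2 scale (SE 0.05). Its rise was larger in tunicamycin (2.91, SE 0.05) and smaller in Oli_ISR (1.08, SE 0.05) and with Sal003 (0.31, SE 0.05). From naive to IL-4/IL-13 cells *Fosl2* rose (log2 1.92, SE 0.07) while *Maf* (log2 -3.19, SE 0.08) and *Dbp* (log2 -1.7, SE 0.12) fell.

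Genes whose log2 CPM followed a member most closely over the 24 libraries were found by Pearson's r among 10586 to 10588 genes with a mean of at least 50 counts. The libraries share 6 groups and 4 mice, so these values describe likeness over groups. *Atf4* was followed by *Aldh18a1* (r = 0.994), a proline synthesis enzyme, and by the tRNA synthetase genes *Sars1* (0.993) and *Yars1* (0.992). *Atf5* was followed by *Phgdh* (0.989) and *Asns* (0.974), enzymes of serine and asparagine synthesis, and by *Etf1* (0.974). For *Ddit3* they were *Vapa* (0.991), *Lars1* (0.99) and *Krtcap2* (0.99), and for *Jdp2* *Siah2* (0.988), *Vars1* (0.976) and *Nfx1* (0.976). The cytokine-raised members had other neighbours. *Atf3* was followed by *Arg1* (0.987), arginase 1, *Ankrd55* (0.986) and *Bhlhe40* (0.979), *Batf3* by *Uqcrc1* (0.99), *Cish* (0.984) and *Retnla* (0.984), and *Nfil3* by *Chchd3* (0.991), *Plekha3* (0.984) and *Ap2m1* (0.979). By ranks of the libraries (Spearman's rho), *Nfil3* was followed less closely by *Plekha3* (0.776) and *Ap2m1* (0.596) than by *Chchd3* (0.947). *Cebpb* was followed by *Cdkn2aipnl* (0.972), *Cebpg* by *Hid1* (0.962) and *Bach1* by *Plxnb2* (0.953). Between members, r over the 24 libraries was 0.99 for *Atf4* and *Ddit3*, 0.91 for *Atf4* and *Cebpg*, 0.9 for *Atf3* and *Batf3*, and -0.07 for *Atf4* and *Atf3*.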

How the data were processed

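The authors trimmed single reads with Cutadapt 1.8, aligned with STAR 2.7 against GRCm39 and counted reads on genes with HTSeq 0.9.1. The values used here are the deposited raw counts, which are not normalized. Of the reads in the table, 12.74% to 15.231% were not assigned to a gene, for any reason, and were left out. The deposited RSEM table was not used, since its header names could be matched to columns only by order. Differences were tested with edgeR 4.0.16 in R 4.3.3 (TMM, filterByExpr, quasi-likelihood test, 1 coefficient per group over 24 libraries), with Benjamini-Hochberg adjustment over 13679 genes. Replicates of a group differed by more than sampling noise (chi-square per gene 2.19 to 35.9), and each was kept. A replicate number marks a mouse. Deviations from group means correlated, between libraries of 1 mouse, with a median of 0.24 (56 of 60 pairs above 0.1), against -0.05 for different mice. The members and gene lists were chosen with earlier results of these data known. Other bZIP genes were named if among the 2 largest rises or falls in a comparison (adjusted p under 0.05, at least 2.5-fold, mean of at least 50 counts; 1 such gene is not reported here), and targets if among the 2 largest changes of their list. For likeness, the 3 genes with the highest r were taken, with log2 CPM at a prior count of 2. Alternatives were DESeq2 1.42.0, upper-quartile scaling, other filters on low counts, only the groups compared, a replicate block, and leaving out each mouse. Exon overlaps and promoter sequences are from GRCm39 with GENCODE M39, which holds 56323 of the 56884 identifiers.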

Additional observations from a re-analysis of the deposited data

Results flagged for a closer look

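Of 60 sets of 4 libraries (10 genes in 6 groups), 1 had a library whose gap to the nearest other, as a share of the range of the set, was above the 95% critical value of Dixon's test, where chance gives about 1 in 20. It was *Atf4* in Oligo, where mouse 4 had 699 CPM and the nearest library 706, a gap of 0.901 of the range (critical value 0.829). The 4 libraries differed by a coefficient of variation of 0.47%, so the gap is small beside the distance to every other group.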

How the results depend on the processing

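Every count of members called in the 6 comparisons, and the number of neighbouring groups that differed in level, stayed within 1.5 times its value under all alternatives. With the replicate block, which pairs libraries of the same mouse, 7 members were higher and 3 lower in tunicamycin and 6 higher and 2 lower in IL-4/IL-13 against naive cells, as without it, and the block changed no call. Of 606 alternative values for the log2 changes of single members, 588 kept direction and side of the threshold, 10 lost the call, 7 gained it and 1 changed sign. The last was *Jdp2* in IL-4/IL-13 against naive cells, which ranged from -0.08 to 0 when each mouse was left out and stood at 0 without mouse 5 (adjusted p = 0.98). The calls lost or gained were all of log2 changes between -0.24 and 0.25 in the main comparison, and the cause was not tested. Scaling moved the median log2 change of all genes little, for example from -0.05 with TMM to -0.12 with upper quartiles in tunicamycin against naive cells. Genes tested ranged from 11017 with at least 10 counts in every library to 27890 without a filter. The count ratios and kept parts of the cytokine rise were added after the data were seen. Depth limits *Batf3* and *Jdp2* most, and with 4 mice per group small changes could be missed.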
